A study of Mus musculus with 6 samples.

Results

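The genes described here handle iron and haem in the liver. The list holds 10 genes, named by their known roles: the iron hormone gene Hamp, the iron exporter gene Slc40a1, the transferrin receptor genes Tfrc and Tfr2, the transferrin gene Trf, the ferritin heavy chain gene Fth1, the ferroxidase gene Cp, the metalloreductase gene Steap4, and Hp and Hpx, whose proteins scavenge haemoglobin and haem. Each was read from the probe set whose annotation names that gene alone, and 9 of the 10 had such a probe set, out of 22180 genes measured in this way. The transferrin probe set carries the names of both Trf and its neighbour Srprb, so no value is given for Trf. Every other member was read by 1 probe set, so no choice between probe sets was needed.

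Hepatocytes make hepcidin, the peptide encoded by Hamp, and release it when iron is plentiful or during inflammation. Hepcidin binds the exporter ferroportin, encoded by Slc40a1, on macrophages and gut cells and causes its breakdown, which keeps iron inside these cells. Iron stores and transferrin saturation reach the Hamp gene through bone morphogenetic proteins (BMPs) and SMAD factors, and inflammation reaches it through interleukin-6 and STAT3. The liver is also the main source of transferrin, ceruloplasmin, haptoglobin and hemopexin in plasma, and the last 3 are acute-phase proteins.

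Liver RNA of 6 mice was measured on 1 array each. The controls were 3 wild-type C57BL/6J mice. The other 3 were ErbB4-/- mice, which lack the receptor tyrosine kinase ErbB4 and survive embryonic life through a transgene that expresses ErbB4 in the heart; per the labels this line was crossed back to C57BL/6J for over 15 generations. All 6 mice, controls included, were given DEN, the abbreviation in this field for the liver carcinogen diethylnitrosamine, once on postnatal day 14. The labels disagree on the time of dissection. The protocol field puts it at 32 weeks after the injection throughout, whereas the sample characteristics list 32, 33 and 34 weeks for the controls and 35, 36 and 37 weeks for the ErbB4-/- mice, in replicate order. Under the latter the ErbB4-/- mice were all dissected later than the controls, and time and genotype cannot be told apart except by the weeks within a group. The heart transgene, the line's other genetic differences and the loss of ErbB4 cannot be told apart in this design.

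Values are log2 expression values as deposited, always given in the order of replicates 1, 2 and 3, and differences are ErbB4-/- minus control with the standard error (SE) and 95% interval of limma. A difference passed at an adjusted p under 0.05 over all 22180 genes, and 1 gene did, 0.00451% of them. Array medians lay between 4.83 and 4.86, and the median SE of a difference was 0.10. Hepatocyte markers gave array means of 12.10 to 12.20 in controls and 12.04 to 12.15 in ErbB4-/- mice, so all 6 arrays carried the labelled tissue. Control replicate 1 stood apart by its sex-biased genes. Its mean was 6.64 over 16 male-biased genes, against 9.74 to 10.06 on the other 5 arrays. Over 18 female-biased genes its mean was 6.78, against 5.47 to 5.82. The sex of the mice is not given here, and the cause of this pattern was not tested. ErbB4-/- replicate 3 stood apart by its score on the first principal component, 33.35 against -21.46 to 5.44. Results are therefore given with and without these arrays where they matter. In 57.5% of genes a value was repeated to the last decimal on 2 or more arrays, as was so for 1 of the 9 measured members, Fth1.

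None of the 9 measured members passed the test across all genes, with adjusted p between 0.760 and 0.897 (limma). At an unadjusted p under 0.05, 3 of the 9 were lower in ErbB4-/- liver, namely Steap4, Tfrc and Cp, against 2.94% of all genes. In 8 of the 9 the ErbB4-/- mean lay below the control mean, the exception being Fth1, whereas 10057 of all 22180 genes had a lower and 12123 a higher mean. The median difference was -0.25 over the 9 members and 0.015 over all genes. In 4 members, Slc40a1, Tfrc, Cp and Steap4, every ErbB4-/- array lay below every control array, against 3.81% of all genes, and in 0 members did every ErbB4-/- array lie above, against 4.52% of all genes. The members and the gene lists below were chosen with earlier results of these data known. Such shares therefore describe the lists and are not a test of them.

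**Figure D1:**
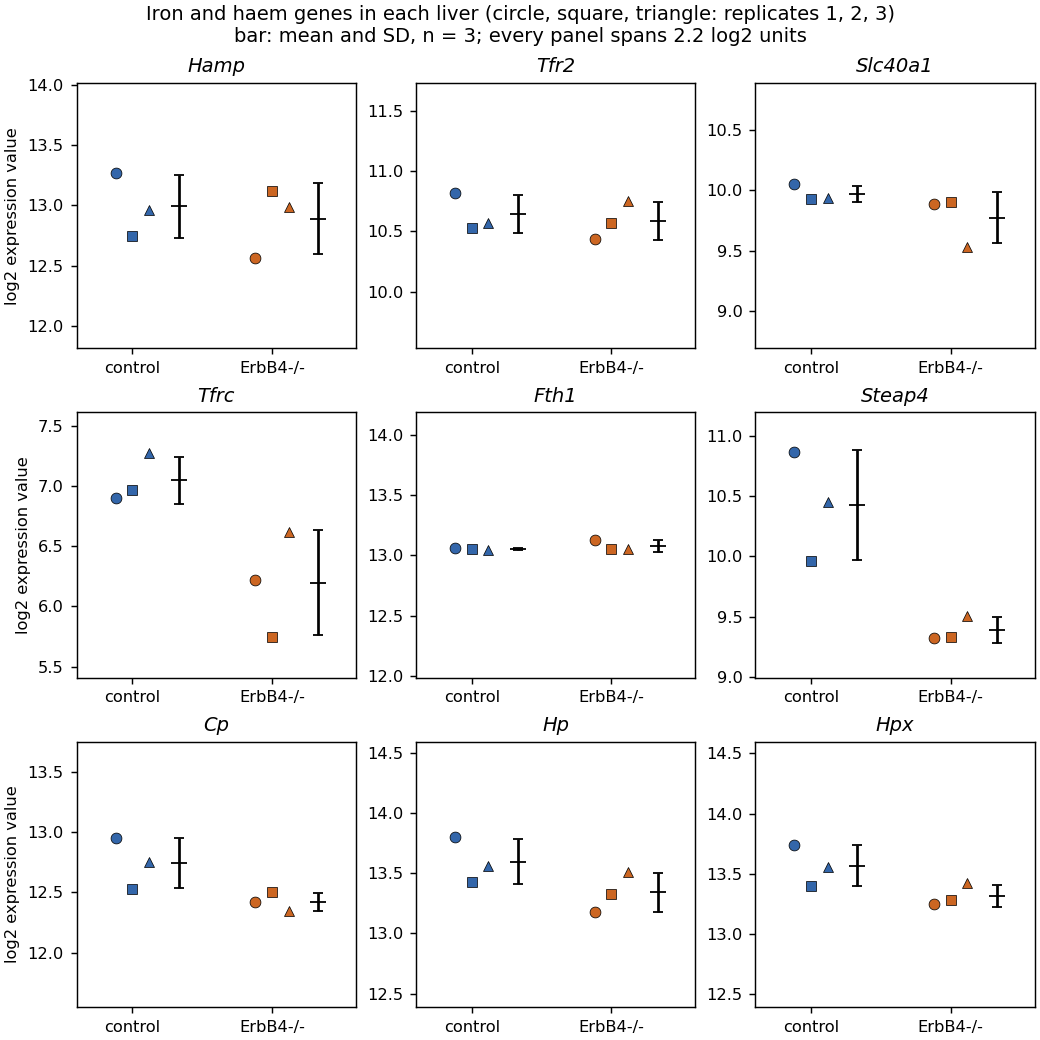
The log2 expression value of each measured gene in each liver, controls in blue and ErbB4-/- in orange, with circle, square and triangle for replicates 1, 2 and 3 and a bar for the mean and SD (n = 3). Steap4 and Tfrc show the widest gaps between the groups, and Fth1 is nearly flat.

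Hepcidin is the hormone of the system, and its gene did not separate the groups. Hamp measured 13.27, 12.75 and 12.96 in controls and 12.56, 13.12 and 12.99 in ErbB4-/- mice. The groups overlapped, with the highest value in control replicate 1 and the lowest in ErbB4-/- replicate 1. The means were 12.99 ± 0.26 and 12.89 ± 0.29 (SD, n = 3 each), a difference of -0.10 (SE 0.19, 95% interval -0.59 to 0.38). That interval holds a level up to 1.5-fold lower, and the sign turned to 0.04 without control replicate 1 and to 0.06 without ErbB4-/- replicate 1.

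Mice carry a second hepcidin gene, Hamp2, next to Hamp, whose product is not known to lower plasma iron. Its probe set measured 9.08, 6.94 and 6.37 in controls and 6.61, 7.99 and 7.33 in ErbB4-/- mice. Control replicate 1 was again the highest of the 6 arrays, and the difference of the means was -0.15 (SE 0.77). The genes are near-identical, so part of the signal of each probe set may come from the other gene.

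The stretch of promoter through which BMP and interleukin-6 signals are known to reach Hamp is shown because the regulators of both routes were measured on these arrays. Sequences are from RefSeq, build GRCm38.p6, 5′ to 3′ on the strand of the gene, from position -140 to -61 relative to the annotated start. Capitals mark the letters TTCNNNGAA, the core that STAT factors bind, and GGCGCC, the core of a BMP-responsive element. Steap4 and Tfrc are set beside the hepcidin genes because they had the largest differences among the members.
Hamp, minus strand, chr7:30944090-30944169: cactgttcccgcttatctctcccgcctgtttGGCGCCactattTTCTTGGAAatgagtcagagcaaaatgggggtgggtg
Hamp2, minus strand, chr7:30924242-30924321: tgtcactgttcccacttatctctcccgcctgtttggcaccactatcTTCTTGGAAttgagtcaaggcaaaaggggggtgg
Steap4, plus strand, chr5:7960332-7960411: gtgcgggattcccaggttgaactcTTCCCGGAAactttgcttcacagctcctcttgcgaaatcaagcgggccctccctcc
Tfrc, plus strand, chr16:32608756-32608835: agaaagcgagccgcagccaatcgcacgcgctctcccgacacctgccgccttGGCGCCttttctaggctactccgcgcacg

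Both hepcidin genes and Steap4 hold TTCNNNGAA in this stretch, and Hamp and Tfrc hold GGCGCC. Over the whole 250 bases before each annotated start, read on both strands, TTCNNNGAA was found in 7.02% and GGCGCC in 9.59% of 32851 promoters. The promoter table held 7 of the 10 members with 12 starts, and each motif was found at 2 of these 12 starts, in Hamp and Steap4 for TTCNNNGAA and in Hamp and 1 of the starts of Tfrc for GGCGCC. A match shows the letters only, and binding was not measured.

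Genes of the BMP and HFE route to hepcidin, 19 of 19 measured, did not pass in either direction (limma, 0 higher and 0 lower), and their median difference was -0.12. Of these, 14 were lower and 5 higher in ErbB4-/- liver, and the groups did not overlap in 1 lower and 1 higher gene, a share near that of all genes (3.81% lower and 4.52% higher). These were Acvr2a, an activin receptor of the route, with a difference of 0.20 (SE 0.08), and Smad6, an inhibitory SMAD, with -0.17 (SE 0.08). Bmp6, the ligand that the liver endothelium makes when iron is high, measured 5.93, 5.93 and 6.17 in controls and 5.93, 5.93 and 5.30 in ErbB4-/- mice. The same value stood on 4 of its 6 arrays, and the difference of -0.29 (SE 0.19) came from the remaining 2. Bmp2, the other endothelial ligand, measured 6.78, 7.26 and 7.19 against 6.96, 6.48 and 6.00.

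Id1 and Smad7, which BMP signalling induces as it does Smad6, overlapped between the groups. Id1 measured 6.54, 6.21 and 6.25 in controls and 6.25, 6.34 and 5.81 in ErbB4-/- mice, and Smad7 measured 6.65, 6.35 and 6.35 against 6.27, 6.35 and 5.65. In both genes ErbB4-/- replicate 3 was the lowest array and control replicate 1 the highest. Of the hepatocyte components, Tmprss6, the protease that cleaves the co-receptor hemojuvelin, differed by -0.03 (SE 0.08), Hjv, which encodes hemojuvelin, by -0.07 (SE 0.26), and Hfe, the haemochromatosis gene, by -0.16 (SE 0.13). Erfe, the erythroid hormone gene that lowers hepcidin, measured 5.49 ± 0.18 in controls and 5.78 ± 0.15 in ErbB4-/- mice.

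Tfr2, the second transferrin receptor, which hepatocytes use to sense iron-loaded transferrin upstream of Hamp, did not separate the groups. It measured 10.82, 10.53 and 10.57 in controls and 10.44, 10.57 and 10.75 in ErbB4-/- mice. The groups overlapped, and the difference was -0.05 (SE 0.12, 95% interval -0.34 to 0.24). Its sign turned without control replicate 1, at 0.04, and without ErbB4-/- replicate 1, at 0.02.

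The interleukin-6 route had 11 of 11 genes measured, of which 0 passed, 8 were lower and 3 higher, with a median difference of -0.13. Il6 itself measured 3.27 ± 0.02 in controls and 3.14 ± 0.11 in ErbB4-/- mice, under the lower quartile of every array (3.63 to 3.67), where a log2 value can be background. Stat3, the factor that carries the signal, measured 10.58, 10.09 and 10.53 in controls and 10.09, 9.87 and 10.04 in ErbB4-/- mice. Control replicate 2 lay at the level of the highest ErbB4-/- array, and the difference was -0.40 (SE 0.15, limma, adjusted p = 0.760). Socs3, which STAT3 induces and which shuts the signal off, measured 8.81, 7.33 and 6.87 against 6.87, 6.54 and 5.87. Control replicate 1 stood 1.47 above the next array, and the groups met at 6.87. Cebpb, a transcription factor of acute-phase genes, separated the groups without passing, at 9.16 ± 0.29 against 8.48 ± 0.22.

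**Figure D2:**
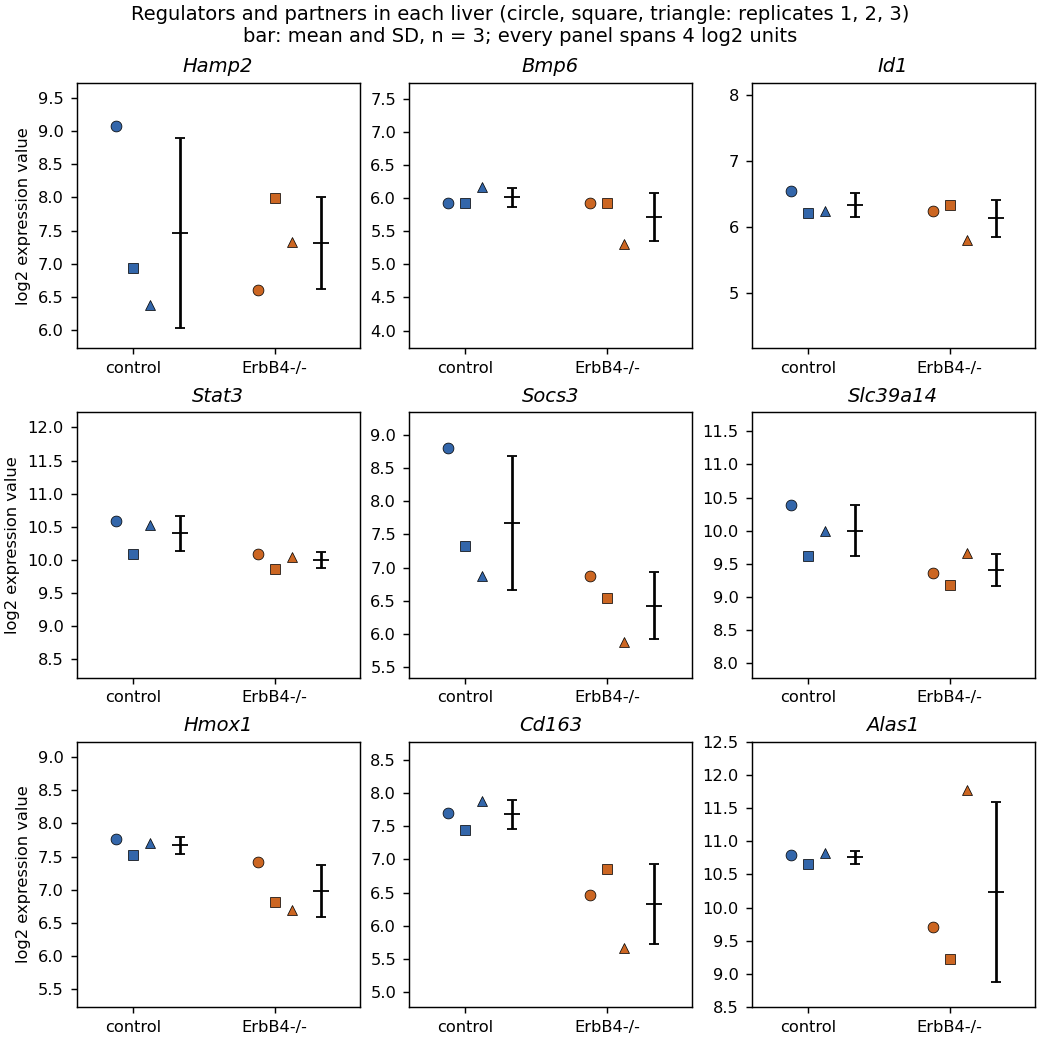
Log2 expression values of 9 genes that regulate or partner the members, controls in blue and ErbB4-/- in orange, with the mean and SD (n = 3). Hmox1 and Cd163 separate the groups, while Hamp2, Bmp6, Id1 and Alas1 overlap between them.

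The largest difference among the members was that of Steap4, a metalloreductase that reduces iron and copper before uptake and is induced by inflammation in liver. It measured 10.87, 9.96 and 10.45 in controls and 9.32, 9.33 and 9.51 in ErbB4-/- mice. All controls lay above all ErbB4-/- arrays, and the controls spread more widely, with an SD of 0.46 against 0.11. The difference was -1.04 (SE 0.23, 95% interval -1.62 to -0.47), which is 2.06-fold lower in ErbB4-/- liver, with an unadjusted p of 0.00484 and an adjusted p of 0.760 (limma). It was -0.82 without control replicate 1, -1.11 without ErbB4-/- replicate 3 and -0.88 (SE 0.53) with the week of dissection in the fit.

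Among 10326 other genes at or above the median level, those most like Steap4 over the 6 arrays were Ifi207, an interferon-inducible gene of the Ifi200 family, and Cd33 and Itgam, which encode surface receptors of myeloid cells. Likeness was the root mean square difference over the 6 arrays after each gene's own mean was taken off, and it was 0.06 for Ifi207, 0.11 for Cd33 and 0.17 for Itgam. Ifi207 measured 6.31, 5.55 and 5.92 in controls and 4.92, 4.88 and 5.02 in ErbB4-/- mice. Nearest genes exist for any profile over 6 arrays, and those of a gene that separates the groups tend to separate them too. A shared control or cell source was not tested, here or for Tfrc below.

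Tfrc, the receptor by which cells take up transferrin-bound iron, was the next in size. It measured 6.90, 6.97 and 7.27 in controls and 6.22, 5.75 and 6.62 in ErbB4-/- mice. The groups did not overlap, with ErbB4-/- replicate 2 the lowest array. The difference was -0.85 (SE 0.24, 95% interval -1.43 to -0.26), 1.80-fold lower, with an unadjusted p of 0.0128 and an adjusted p of 0.760 (limma). Unlike the other members with lower values, Tfrc was not highest in control replicate 1, and its difference was -0.92 without that array and -1.06 without ErbB4-/- replicate 3. With the week of dissection in the fit it was -1.43 (SE 0.45). The genes most like it were Rac2, a GTPase of blood cells, at a root mean square difference of 0.19, Cebpb at 0.20 and Clec4a1, a lectin gene of myeloid cells, at 0.21.

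Iron regulatory proteins bind hairpins in the messages of Tfrc, Fth1 and Slc40a1, stabilising the first and holding back translation of the others when iron is low. The genes of both proteins differed little between the groups. Aco1 measured 9.98 ± 0.07 in controls and 10.09 ± 0.07 in ErbB4-/- mice, and Ireb2 8.97 ± 0.06 and 9.08 ± 0.20. Fbxl5, the iron-sensing subunit of the ligase that degrades the second of them, measured 7.38 ± 0.10 and 7.24 ± 0.12. In this list of 5 genes 0 passed, and the median difference was -0.14. The groups did not overlap in 1 of them, Cul1, at 9.09 ± 0.06 in controls and 8.84 ± 0.24 in ErbB4-/- mice. Of all genes, 3.81% were lower without overlap. The activity of the iron regulatory proteins was not measured.

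Fth1, the ferritin subunit that oxidises iron for storage, varied least of the members. It measured 13.06, 13.05 and 13.04 in controls and 13.13, 13.05 and 13.05 in ErbB4-/- mice. Its range over the 6 arrays was 0.09, smaller than that of all but 4.7% of genes, and the difference was 0.03 (SE 0.05, 95% interval -0.09 to 0.15). The values lie close to the highest on these arrays, 14.37. Those of Hp and Hpx lie higher still, and those of Hamp at a like level. Whether any of these probe sets was saturated was not tested. Ferritin is controlled largely by translation, which these arrays do not read.

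Slc40a1, the only known iron exporter, is expressed by Kupffer cells, the resident macrophages of liver, and by hepatocytes. It measured 10.05, 9.93 and 9.94 in controls and 9.89, 9.90 and 9.53 in ErbB4-/- mice. The groups did not overlap, but the gap between the lowest control and the highest ErbB4-/- array was 0.03. The difference was -0.20 (SE 0.11, 95% interval -0.49 to 0.08), and it was -0.08 without ErbB4-/- replicate 3, the lowest array. With the week of dissection in the fit its sign turned, to 0.15 (SE 0.19).

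Of the genes for cellular import, storage and export of iron, 21 of 23 were measured and 0 passed, with 16 lower, 5 higher and a median difference of -0.07. Slc39a14, an importer of iron not bound to transferrin that inflammation induces in hepatocytes, measured 10.39, 9.62 and 9.99 in controls and 9.37, 9.18 and 9.66 in ErbB4-/- mice. The groups overlapped between control replicate 2 and ErbB4-/- replicate 3, and the difference was -0.60 (SE 0.23). Slc11a2, the divalent metal transporter, differed by -0.12 (SE 0.06), and Ncoa4, the receptor that sends ferritin to breakdown, by -0.19 (SE 0.10). Lcn2, which binds bacterial iron carriers, measured 11.86, 8.63 and 10.30 against 8.98, 8.59 and 9.44. Ltf, the lactoferrin gene of neutrophil granules, measured 7.55, 5.13 and 6.74 against 4.26, 4.33 and 4.49, without overlap.

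Cp encodes ceruloplasmin, the copper enzyme that oxidises exported iron so that transferrin can bind it. It measured 12.95, 12.53 and 12.75 in controls and 12.42, 12.50 and 12.35 in ErbB4-/- mice. The groups did not overlap, and control replicate 2 lay 0.03 above the highest ErbB4-/- array. The difference was -0.32 (SE 0.12, 95% interval -0.61 to -0.03), with an unadjusted p of 0.0351 and an adjusted p of 0.760 (limma). It was -0.22 without control replicate 1 and -0.12 (SE 0.24) with the week of dissection in the fit.

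Haptoglobin, encoded by Hp, binds free haemoglobin, and hemopexin, encoded by Hpx, binds free haem. Hp measured 13.80, 13.43 and 13.56 in controls and 13.18, 13.33 and 13.51 in ErbB4-/- mice. Hpx measured 13.74, 13.40 and 13.56 in controls and 13.25, 13.28 and 13.42 in ErbB4-/- mice. In both genes control replicate 2 lay below the highest ErbB4-/- array, replicate 3, so the groups overlapped by that array alone. The difference was -0.26 (SE 0.13, 95% interval -0.58 to 0.06) for Hp and -0.25 (SE 0.10, 95% interval -0.50 to 0.01) for Hpx. Each was -0.16 without control replicate 1, and without ErbB4-/- replicate 3 they were -0.34 and -0.30.

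**Figure D3:**
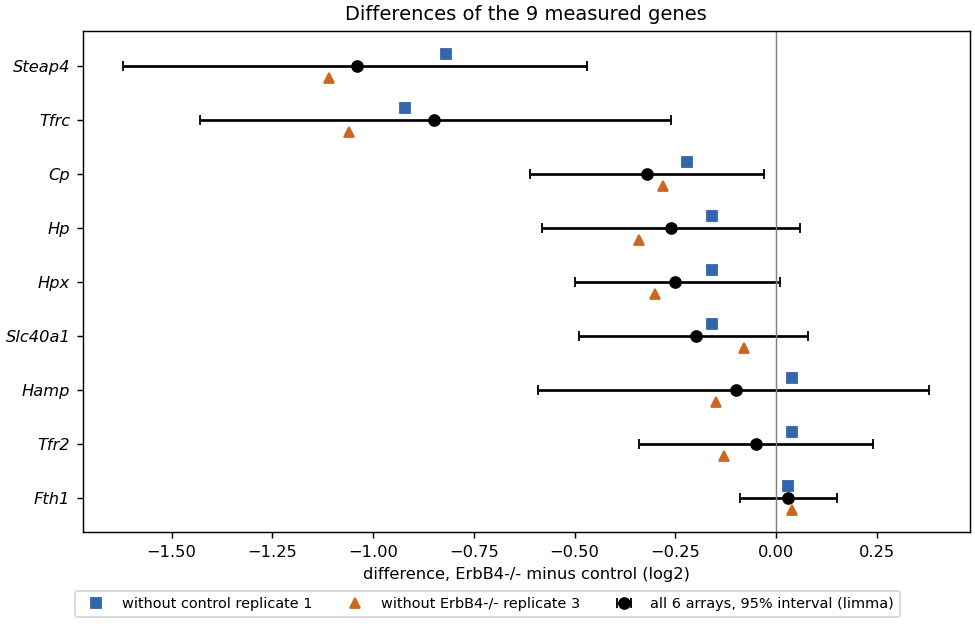
Difference of each measured gene, ErbB4-/- minus control on the log2 scale, with the 95% interval of limma over all 6 arrays (black), and the same difference without control replicate 1 (blue squares) or without ErbB4-/- replicate 3 (orange triangles). The intervals of Steap4, Tfrc and Cp end below 0, and the points of Hamp and Tfr2 move across 0 without control replicate 1.

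Across the members the arrays differed within the control group as well as between groups. Control replicate 1 was the highest array in 7 of the 9 members, and ErbB4-/- replicate 1 was the lowest in 5. The members' median deviation from their own means was 0.30 in control replicate 1, -0.03 in control replicate 2 and 0.09 in control replicate 3. In the ErbB4-/- mice it was -0.19, -0.08 and -0.01, so control replicate 2 lay among the ErbB4-/- arrays by this measure. By the members' mean deviation control replicate 2 lay above them, at 0 against -0.23, -0.19 and -0.09. Without control replicate 1 the members' median difference was -0.16, and 6 of the 9 were lower. Leaving out an array cannot make separated groups overlap, so counts without overlap can only stay or rise and do not test robustness. The same 4 members separated the groups without control replicate 1, where 7.40% of all genes did in the lower direction. Without ErbB4-/- replicate 3 Hp and Hpx joined them, giving 6 members against 7.56% of all genes, and without both arrays the count was 6 against 12.0%. Without ErbB4-/- replicate 1 the median difference was -0.22, and 6 members were lower.

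**Figure D4:**
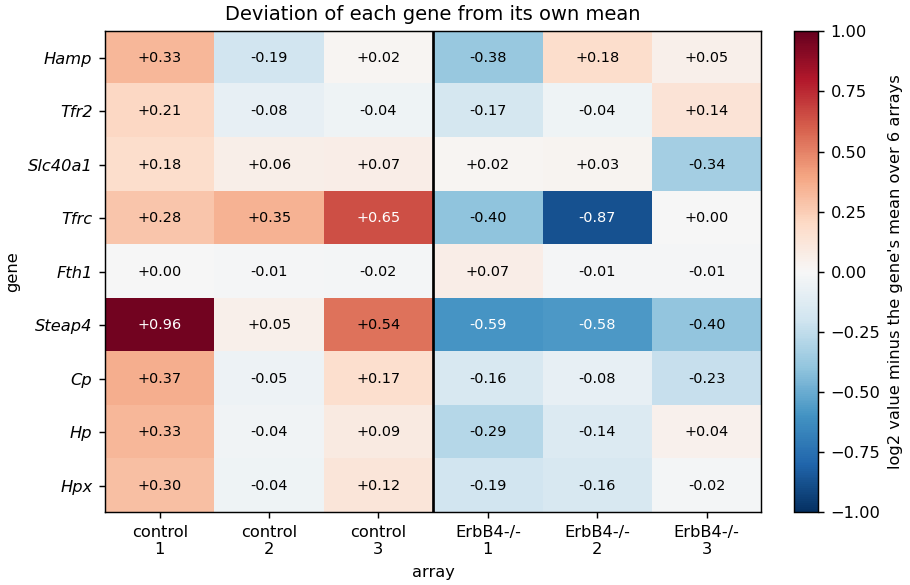
Deviation of each gene (rows) on each array (columns) from that gene's mean over the 6 arrays, on the log2 scale, red above and blue below. Control replicate 1 is above the mean in every gene but Fth1, and Steap4 and Tfrc hold the strongest colours.

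Inflammation raises Hamp, which differed by -0.10 (SE 0.19), and by 0.04 without control replicate 1. Steap4, Cp, Hp and Hpx are themselves acute-phase genes, so the rest of that group was read beside them. Of 25 listed, 21 were measured and 0 passed, with 19 lower and 2 higher in ErbB4-/- liver and a median difference of -0.38. The groups did not overlap in 4, all lower, namely Crp, Cd14, Saa4 and Fgg, beside 3.81% of all genes in that direction. The mean of the 21 was 11.24, 10.19 and 10.78 in controls and 10.06, 10.14 and 10.37 in ErbB4-/- mice. Control replicate 1 was highest, as it was for Steap4, Cp, Hp and Hpx, and control replicate 2 lay inside the ErbB4-/- range, as it did for Hp and Hpx but not for Steap4 and Cp.

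Markers of other liver cells also had lower means in ErbB4-/- liver. All 15 markers of Kupffer cells and macrophages did, 12 of them without overlap, with array means of 8.62, 8.71 and 8.97 in controls and 8.36, 7.95 and 7.42 in ErbB4-/- mice. All 14 neutrophil markers were lower, 10 without overlap, with array means of 7.10, 5.24 and 6.78 against 4.59, 4.67 and 4.96. In ErbB4-/- mice Camp and Ly6g lay under the lower quartile of every array (3.63 to 3.67), where a log2 value can be background. Stfa2l1 did so in ErbB4-/- replicates 1 and 2. All 12 markers of sinusoidal endothelium, where Bmp6 and Bmp2 are made, were lower, 3 without overlap, with array means of 8.29, 8.59 and 8.76 against 8.33, 7.71 and 7.04. Of all genes, 3.81% were lower without overlap. The marker counts were not repeated with arrays left out. The mean over the 9 members was 11.72, 11.39 and 11.57 in controls and 11.16, 11.20 and 11.30 in ErbB4-/- mice. Within each group the neutrophil markers had the order of the members' mean, and so did the acute-phase genes above. The macrophage and endothelial markers had another order. Control replicate 1 was their lowest control and ErbB4-/- replicate 3 the lowest of all arrays, while both arrays were the highest of their group for the members. With 3 arrays per group, such orders do not show which cells the members' RNA came from, and this was not tested. None of these 41 markers passed over all genes. In whole liver, fewer cells of a type and less RNA per cell cannot be told apart, and the part of these cells in the values of Slc40a1, Tfrc, Steap4, Hp, Bmp6 and Bmp2 was not tested. Of 15 erythroid markers 6 were measured, with array means of 4.86 to 4.90 against 4.77 to 5.03. The haemoglobin chain genes were not among them, so the blood content of the samples was not measured by these genes. Of the 6, Rhag lay under the lower quartile of every array, and Epb42 and Gata1 under the median of every array.

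Genes that take up, export or break down haem, 17 of 18 measured, had 0 that passed, 10 lower, 7 higher and a median difference of -0.04. The 3 whose groups did not overlap were all lower in ErbB4-/- liver, beside 3.81% of all genes in that direction. Hmox1, the inducible haem oxygenase, measured 7.77, 7.53 and 7.71 in controls and 7.42, 6.82 and 6.69 in ErbB4-/- mice, a difference of -0.70 (SE 0.20). Cd163, the macrophage receptor that takes up haptoglobin bound to haemoglobin, measured 7.70, 7.45 and 7.89 against 6.47, 6.85 and 5.66, a difference of -1.35 (SE 0.32). Spic, the transcription factor of iron-recycling macrophages, measured 6.50, 6.87 and 6.92 against 5.93, 5.95 and 5.53, a difference of -0.96 (SE 0.17). All of these are macrophage genes or are expressed there, and the macrophage markers also had lower means, as given above. The part of macrophages in the values of Hmox1, Cd163 and Spic was not tested. Lrp1, the hepatocyte receptor for hemopexin bound to haem, differed by 0.01 (SE 0.16).

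Of 14 haem synthesis genes listed, 12 were measured and 0 passed, with 4 lower, 8 higher and a median difference of 0.12, beside 12123 higher of all 22180 genes. None had an unadjusted p under 0.05 (limma). Those with the smallest p were Abcb6, a porphyrin transporter of mitochondria, with a difference of 0.21 (SE 0.10), Uros, a uroporphyrinogen synthase, with 0.16 (SE 0.08), and the mitochondrial carriers Slc25a38 with 0.11 (SE 0.06) and Abcb10 with 0.31 (SE 0.17). Alas1, the rate-limiting enzyme of haem synthesis in liver, measured 10.79, 10.65 and 10.83 in controls and 9.70, 9.22 and 11.78 in ErbB4-/- mice. The controls lay within 0.18 of each other, while ErbB4-/- replicate 3 was the highest and the other ErbB4-/- arrays the lowest of all 6. Genes of iron-sulphur cluster assembly had 13 of 18 measured, with 11 higher, 2 lower and a median difference of 0.08, and 0 passed. Those with the smallest p were Hscb, a chaperone of cluster transfer, with 0.16 (SE 0.08), and Mms19, of the cytosolic assembly machinery, with 0.15 (SE 0.07).

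Over the 7 lists of iron and haem genes outside the members, 98 of 108 genes were measured and 0 passed (limma, adjusted p between 0.760 and 1). At an unadjusted p under 0.05 there were 7 lower and 1 higher, beside 653 lower and 615 higher of all 22180 genes. The groups did not overlap in 9 lower and 3 higher genes of the 98, beside 3.81% and 4.52% of all genes in these directions.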

How the data were processed

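Per the labels' protocols, total RNA of 6 livers was taken up in Trizol and turned into biotin-labelled cDNA with Affymetrix kits. The deposited values had been processed by the authors and are on a log2 scale, judged from their range of 1.74 to 14.37; their background correction, normalization and summarisation, and the build of the array, are unstated in the labels and headers. Of 41345 probe sets, 23521 carry 1 gene symbol, 1814 several, and 16010 are unnamed here. The probe set with the highest mean stood for each of 22180 genes, and 0 symbols needed an update from RefSeq (GRCm38.p6).

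Genotype was the only term of a two-sided fit (limma 3.58.1, R 4.3.3, lmFit and eBayes), with Benjamini-Hochberg adjustment over all genes. In simulated data with 200 changed genes of 22180, 73% were recovered at a log2 change of 1. The simulated noise was independent between genes, and all 200 changed by the same amount. This share is therefore a check of the fit and not the chance of calling a member. Steap4, at -1.04, had an adjusted p of 0.760 (limma). The design text names biological replicates. A permutation of 3 against 3 arrays cannot go below p = 0.10 and was not used. Alternatives were renormalization, filters, priors, array weights, the replicate block, the week and left-out arrays. Same-numbered arrays did not deviate together over all genes (correlations -0.10, 0.03 and -0.05), which cannot show whether a pairing affects some genes. The main fit treated the arrays as unpaired.

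Named from each other list were fixed regulators and at most 4 genes of smallest p. Saa4 and Fgg were named after their values were seen. Members and lists were chosen with earlier results of these data known. Figures used matplotlib 3.10.9.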

Additional observations from a re-analysis of the deposited data

How the results depend on the processing

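None of the 9 members passed under any of the 16 alternative fits, and Tfrc, Fth1, Cp, Steap4, Hp and Hpx kept their direction in all of them. Without control replicate 1 the sign turned in Hamp (0.04) and Tfr2 (0.04), without ErbB4-/- replicate 1 in Hamp (0.06) and Tfr2 (0.02), and with the week as a covariate in Slc40a1 (0.15). Over the arrays left out singly Hamp ran from -0.22 to 0.06 and Tfr2 from -0.13 to 0.04. The lowest adjusted p of any member was 0.449 (limma), for Steap4, whose difference ran from -1.28 to -0.82, and that of Tfrc from -1.43 to -0.63. The count of genes that passed, 1 over all arrays, was 0 with every table row tested, with the replicate block, with the week, at a threshold of 0.01, without control replicate 1 and ErbB4-/- replicate 3 together, and without any 1 array. The replicate block changed no member's call. The no-overlap counts without arrays were added after seeing the data.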

Other observations

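Metallothioneins, small proteins that bind zinc and copper, vary with the acute-phase response that also governs several iron genes. Mt2 measured 12.85, 11.59 and 12.94 in controls and 9.19, 10.42 and 11.81 in ErbB4-/- mice, and Mt1 measured 12.27, 11.32 and 12.11 against 9.79, 10.67 and 11.60. Neither passed (limma, adjusted p = 0.760), and in both ErbB4-/- replicate 3 lay above control replicate 2. Crp, the C-reactive protein gene, separated the groups without passing, at 12.30, 12.12 and 12.18 against 11.51, 11.66 and 11.08, and unlike Steap4 its controls lay close together.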
